A study of Homo sapiens with 4 samples.

Results

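The module of caspases, death receptors and regulators of the inhibitor of apoptosis proteins (IAPs) comprised 36 genes, listed by name for their place in cell death and not by a threshold on the array values. Each gene was represented by 1 transcript cluster of the array, the cluster with the highest mean signal where several named the gene. Of the 36 genes, 35 were measured among 18417 genes in all, and RIPK1, the kinase of the TNF receptor complex, is not analysed here. The list held 15 extrinsic genes, 9 intrinsic genes, 2 genes of necroptosis, 3 IAP genes, 4 genes of the execution phase and 3 other caspases. Counted as intrinsic were 6 genes of the apoptosome and mitochondria and the 3 PIDDosome genes CASP2, CRADD and PIDD1.

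The RNA came from MDA-MB-468 cells, a human breast cancer line of basal type with the endogenous contact mutant p53-R273H, and was read on 4 Affymetrix arrays. On 2 arrays the cells carried the lentiviral shRNA p53si-1 directed against this mutant p53, and on 2 arrays they carried a lentiviral non-targeting shRNA (NS). The comparison asked which transcripts differ once mutant p53 is silenced, a condition under which the study assayed caspase activity and PARP cleavage. A single p53 shRNA in a single cell line was profiled, the labels name no duration of transduction, and p53 mRNA is not analysed here. Values are log2 RMA signals, and each log2 fold change subtracts the NS mean from the p53si-1 mean. The gene medians of the arrays lay between 6.56 and 6.61. Keratins, EPCAM and the other epithelial markers read between 9.38 and 12.6 on all arrays. Of 14 leukocyte, fibroblast and endothelial markers, 3 (CD14, COL1A1 and KDR) lay above the gene median, and the summed log2 signal of the 14 was 72.0 to 72.5 on p53si-1 arrays and 71.8 to 73.1 on NS arrays. Within these lists, KDR gave a log2 fold change of 0.50 (adjusted p = 0.275, separated upward) and the basal keratin KRT5 -0.41 (adjusted p = 0.216, separated downward), and their part in the results was not tested.

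In the extrinsic pathway a ligand such as FAS ligand or TRAIL clusters its death receptor, the adaptor FADD binds the receptor tail, and the initiators caspase-8 and caspase-10 cleave one another on the complex. In the intrinsic pathway cytochrome c leaves the mitochondria and assembles APAF1 into the apoptosome, which activates caspase-9. Both routes end in executioner caspases, which cut substrates such as PARP1 and are held back by XIAP. Caspases are made as inactive precursors, so an array reads the amount of transcript and not cleavage or activity.

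At the level of the transcript no measured member passed the adjusted p or the fold threshold between p53si-1 and NS. Few of all genes did, so the counts below do not set the members apart. BMF, the pro-apoptotic gene of the study, is outside this list and gave a log2 fold change of 0.71 (limma adjusted p = 0.059). By limma, 0 of 35 members passed an adjusted p of 0.05 in either direction, where 0.0326% of all genes were called higher and 0.076% lower. The lowest adjusted p of a member was 0.149 (FAS). In bulk RNA of this kind, a change in the share of dying cells and a change in RNA per cell cannot be told apart. By the size of the difference, 0 members were over 1.5-fold apart, where 0.271% of all genes were higher and 0.652% lower by that much. The 95% interval of limma lay within 1.5-fold in either direction for 31 of 35 members, against 91.9% of all genes. Larger differences remained possible for FAS, FADD, TNFSF10 and CASP14, whose intervals reached past 1.5-fold downward.

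Before adjustment, 2 members were higher at a limma p under 0.05, against 5.45% of all genes, and 5 members were lower, against 6.8%. The higher ones were CASP2 and APAF1, both counted here as intrinsic, CASP2 as a PIDDosome gene and APAF1 as the apoptosome scaffold. The lower ones were FAS, FADD, TNFRSF10A and TRADD, all of the extrinsic route, and the IAP gene BIRC5. Both p53si-1 arrays lay above both NS arrays in 9 members and below them in 10, where 19.9% of all genes were separated upward and 22.6% downward. After median centring of the arrays the split of the members was 11 above and 6 below, and after quantile normalization 9 and 7. Centring moved the median log2 fold change of all genes from -0.0089 to 0.0158. The all-gene shares without overlap are not given for these scalings. With 2 arrays a group an exact permutation test cannot give a two-sided p below 0.333.

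**Figure D1:**
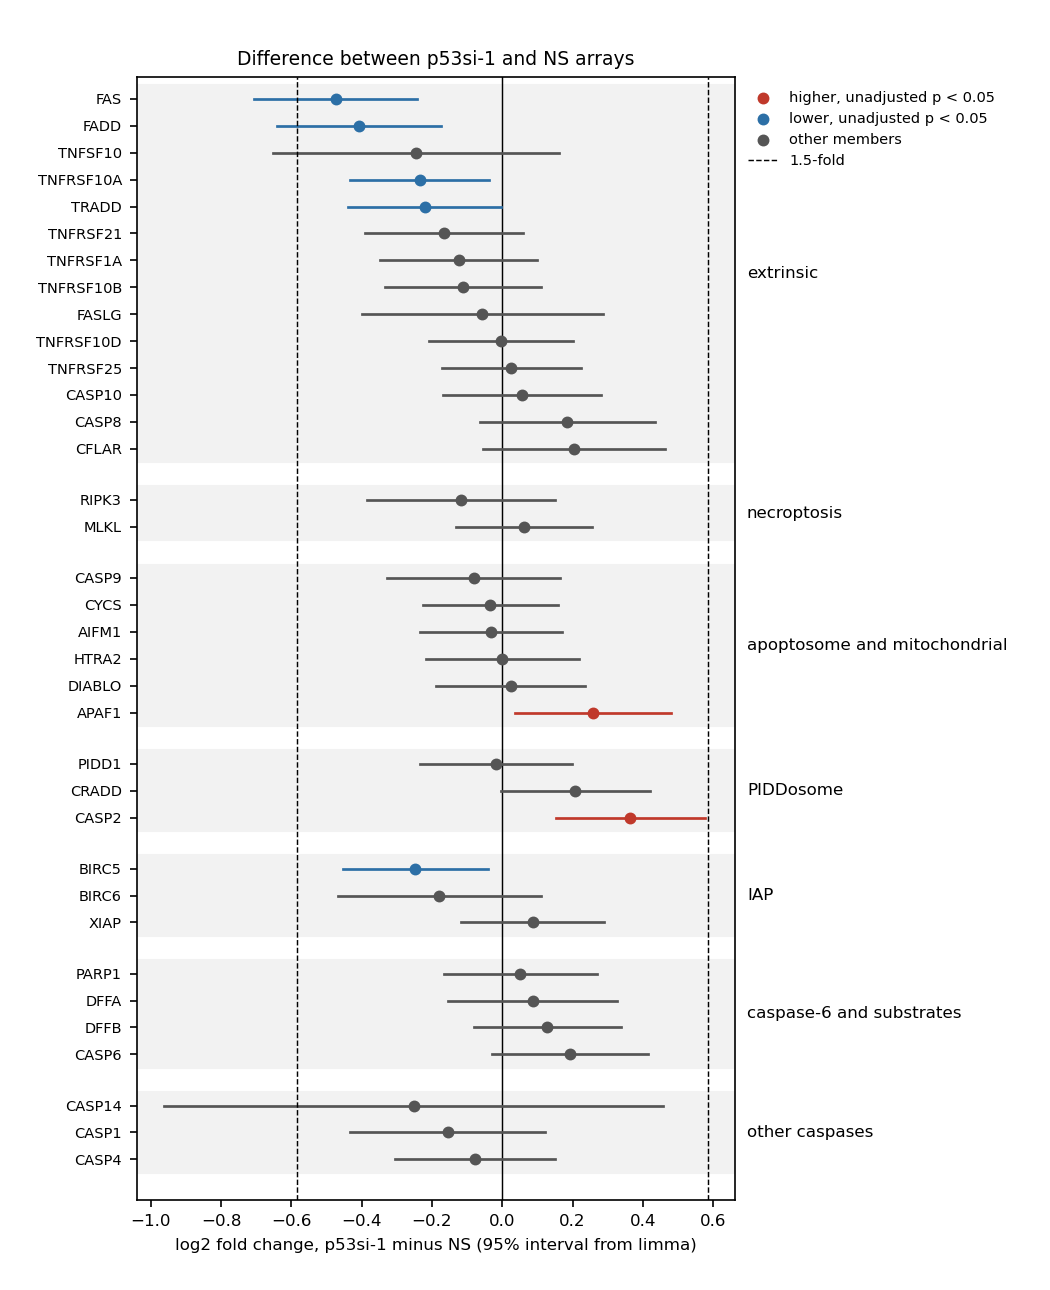
Difference in log2 signal between p53si-1 and NS (x axis) of the 35 measured members by role, with points for the estimate and bars for the 95% interval of limma. Dashed lines mark 1.5-fold; FAS at -0.47 and CASP2 at 0.36 are the outermost estimates, both inside the lines, and the bar of CASP14 is the widest.

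The extrinsic and intrinsic members had different medians. Among 14 measured extrinsic members the median log2 fold change was -0.12, with 10 lower and 4 higher means and 7 separated downward against 2 upward. Among 9 intrinsic members the median was 0.00039, with 4 lower and 5 higher means and 1 separated downward against 3 upward. Those 3 were APAF1 and the PIDDosome genes CASP2 and CRADD. Without CASP2, CRADD and PIDD1 the intrinsic median was -0.0157. Over all genes the median was -0.0089, with 52.6% lower and 47.4% higher means and 22.6% separated downward against 19.9% upward. Without p53si-1 replicate 2 the extrinsic median was -0.0445, so that array carried much of its size, and the intrinsic median ran from -0.0264 to 0.0535 when each array in turn was left out. After median centring the extrinsic members had 9 lower and 5 higher means, with 5 separated downward and 3 upward. The all-gene shares are not given for that setting. The difference between the 2 medians was not tested.

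Within each route, the members with the lowest unadjusted limma p were FAS (cluster 7929032) and FADD (7942168) for the extrinsic and CASP2 (8136869) and APAF1 (7957759) for the intrinsic. Their promoter windows are shown. These genes were separated without overlap, downward for FAS and FADD and upward for CASP2 and APAF1, as were other members. Each window holds 250 bases before and 50 after the RefSeq start on GRCh38.p14, printed 5′ to 3′ on the plus strand, the coding strand of all 4 genes. They lie at chr10:88990548-88990847 (FAS), chr11:70203046-70203345 (FADD), chr7:143288101-143288400 (CASP2) and chr12:98645040-98645339 (APAF1). Capitals mark the GC box GGGCGG and the CCAAT box CCAAT on either strand.
FAS: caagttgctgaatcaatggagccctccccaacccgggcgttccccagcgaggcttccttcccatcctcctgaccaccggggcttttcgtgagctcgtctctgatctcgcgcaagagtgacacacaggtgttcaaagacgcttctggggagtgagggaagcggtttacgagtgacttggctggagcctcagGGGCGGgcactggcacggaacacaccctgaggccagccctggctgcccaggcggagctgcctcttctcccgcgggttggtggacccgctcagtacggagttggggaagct
FADD: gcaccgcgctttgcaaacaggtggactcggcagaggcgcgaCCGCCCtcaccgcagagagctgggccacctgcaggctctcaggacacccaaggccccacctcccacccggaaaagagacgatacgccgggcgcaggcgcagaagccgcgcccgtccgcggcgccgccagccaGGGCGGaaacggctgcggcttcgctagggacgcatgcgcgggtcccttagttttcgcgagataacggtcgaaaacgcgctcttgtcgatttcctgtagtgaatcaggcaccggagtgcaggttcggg
CASP2: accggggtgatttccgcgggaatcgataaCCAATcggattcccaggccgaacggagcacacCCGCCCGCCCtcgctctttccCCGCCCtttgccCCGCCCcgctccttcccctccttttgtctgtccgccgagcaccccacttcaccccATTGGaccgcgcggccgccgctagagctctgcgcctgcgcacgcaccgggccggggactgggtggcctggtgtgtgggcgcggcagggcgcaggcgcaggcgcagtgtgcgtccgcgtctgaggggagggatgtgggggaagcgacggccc
APAF1: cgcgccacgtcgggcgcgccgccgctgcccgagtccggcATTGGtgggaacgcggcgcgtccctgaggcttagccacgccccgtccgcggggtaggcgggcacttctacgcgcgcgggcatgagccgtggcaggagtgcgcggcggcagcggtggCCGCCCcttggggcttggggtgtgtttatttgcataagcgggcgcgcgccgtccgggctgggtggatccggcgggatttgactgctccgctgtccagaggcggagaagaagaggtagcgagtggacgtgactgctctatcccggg

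The FAS window held 1 GC box and 0 CCAAT boxes, and that of FADD 2 GC boxes and 0 CCAAT boxes. CASP2 had 4 GC boxes, of which a pair overlaps in a single run of capitals, and 2 CCAAT boxes, and APAF1 had 1 of each. Of the 35 measured members, 26 had a window. A GC box was found in 17 of these 26, against 44.5% of 27305 windows with 1 per gene, and a CCAAT box in 10 of 26, against 35.7%. GC content was 63.0% for FAS, 66.7% for FADD and 71.3% for both CASP2 and APAF1, against 57.2% over all windows. A match to a single repeat of the p53 response element, of which a full site holds a pair, was found in 1 of 26 windows (CASP9), against 6.53% of all, and a match to the NF-kB consensus in 5 of 26, against 10.8%. These are matches of letters, searched on both strands, and were not tested for binding.

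Among the death ligands, TNFSF10 encodes TRAIL, which binds the receptors DR4 and DR5. TNFSF10 read 8.20 and 7.77 on p53si-1 arrays and 8.38 and 8.09 on NS arrays, a log2 fold change of -0.25 ± 0.17 (limma SE, adjusted p = 0.622). The groups overlapped, and in each of them replicate 2 was the lower array. The difference was -0.0303 without p53si-1 replicate 2 and -0.461 without p53si-1 replicate 1. FASLG, the ligand of FAS, read 4.13 and 3.95 with p53si-1 and 3.91 and 4.28 with NS (log2 fold change -0.06 ± 0.14, adjusted p = 0.914). Its signal was in the lower tail of genes on this platform, under the first quartile of 4.72, and no detection call was used here.

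Of the 7 receptors, 6 had a lower mean and 5 were separated downward, with a median of -0.12, where 52.6% of all genes had a lower mean and 22.6% were separated downward. After median centring, a setting for which the all-gene shares are not given, 5 receptors had a lower mean and 3 were separated downward. FAS encodes the death receptor CD95 and is a target of wild-type p53. FAS read 7.02 and 6.83 on p53si-1 arrays and 7.39 and 7.41 on NS arrays, a log2 fold change of -0.47 ± 0.10 (1.39-fold lower, 95% interval -0.71 to -0.24). Both p53si-1 arrays were below both NS arrays by more than either group's own spread, while the adjusted p of limma was 0.149. TNFRSF10A, the TRAIL receptor DR4, read 7.15 and 7.10 with p53si-1 and 7.39 and 7.34 with NS, a log2 fold change of -0.23 ± 0.08 (adjusted p = 0.337). The groups did not overlap and each pair of replicates was within 0.05 on the log2 scale.

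TNFRSF10B, the TRAIL receptor DR5 and a wild-type p53 target, read 8.63 and 8.71 on p53si-1 arrays and 8.71 and 8.85 on NS arrays (log2 fold change -0.11 ± 0.09, adjusted p = 0.691). Its groups nearly touched, at 8.713 with p53si-1 and 8.714 with NS. The decoy receptor TNFRSF10D, which binds TRAIL without a complete death domain, read 6.84 and 6.91 with p53si-1 and 6.92 and 6.84 with NS (log2 fold change -0.0036 ± 0.084, adjusted p = 0.993), and its sign turned after median centring. Next to each other in the RefSeq order, TNFRSF10A and TNFRSF10D thus gave estimates of -0.23 and -0.0036. TNFRSF21 (DR6) had a log2 fold change of -0.17 and TNFRSF1A, the main receptor of TNF, -0.12, both separated downward at adjusted p of 0.542 and 0.652. TNFRSF25 (DR3) overlapped, at 0.03.

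The adaptors couple receptors to caspases. FADD, which recruits caspase-8 to FAS and the TRAIL receptors, read 8.95 and 9.07 on p53si-1 arrays and 9.49 and 9.35 on NS arrays. Both p53si-1 arrays were the lower ones, with a log2 fold change of -0.41 ± 0.10 (1.33-fold lower, 95% interval -0.64 to -0.17, adjusted p = 0.191). TRADD, the adaptor of TNF receptor 1, read 8.77 and 8.63 with p53si-1 and 8.94 and 8.90 with NS, a log2 fold change of -0.22 ± 0.09 (adjusted p = 0.404). The 2 p53si-1 readings of TRADD differed by 0.15, so its separation was close to the spread within a group.

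Downstream of the adaptors act the initiator caspases and their regulator FLIP, none of which passed the adjusted threshold. CASP8, the initiator caspase of the death receptors, read 7.79 and 8.01 on p53si-1 arrays and 7.69 and 7.74 on NS arrays (log2 fold change 0.18 ± 0.10, adjusted p = 0.535). CFLAR encodes FLIP, a caspase-8 homolog that blocks or tunes the receptor complex, and read 6.98 and 6.77 with p53si-1 and 6.74 and 6.60 with NS (0.20 ± 0.11, adjusted p = 0.509). In both genes the lower p53si-1 array lay near the higher NS array. A dimmer cluster of CFLAR gave 0.10 in the same direction. CASP10 overlapped, at 5.45 and 5.61 with p53si-1 and 5.46 and 5.49 with NS (0.06, adjusted p = 0.858). CFLAR, CASP10 and CASP8 follow one another in the RefSeq gene order, and their 3 means were higher with p53si-1, although that of CASP10 was lower (-0.0258) without p53si-1 replicate 2.

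**Figure D2:**
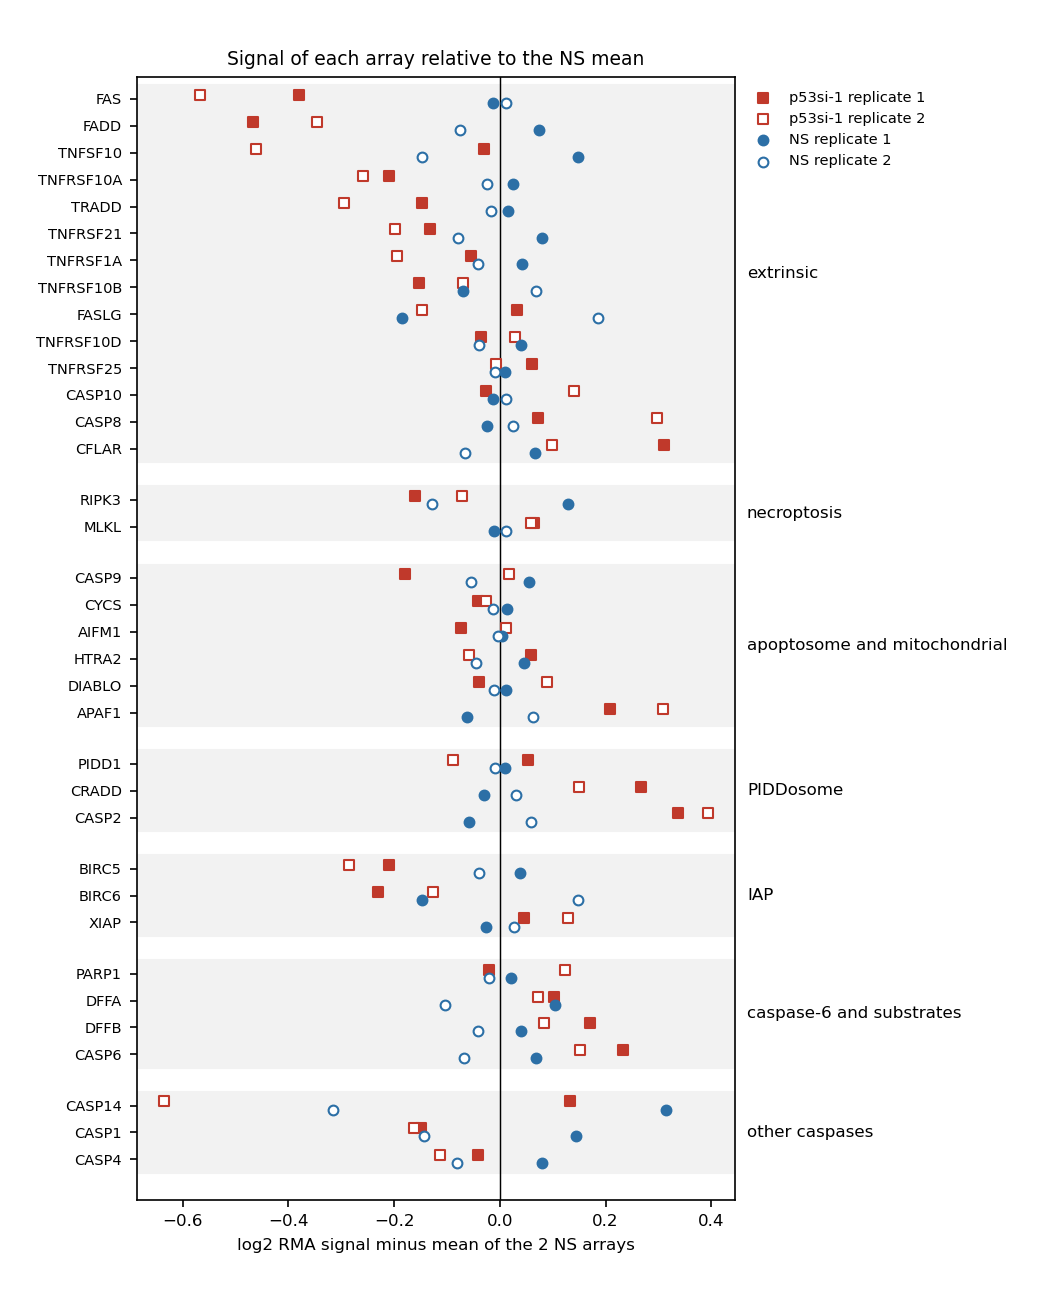
Log2 signal relative to the NS mean (x axis) on each of the 4 arrays by member, with red squares for p53si-1 and blue circles for NS, filled for replicate 1 and open for replicate 2. The p53si-1 squares of FAS and FADD lie left of both NS circles and those of CASP2 and APAF1 right of them, while CASP14 spreads by replicate number in both groups.

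Necroptosis, the lytic death that RIPK3 and its substrate MLKL carry out when caspase-8 is inactive, had 2 measured members, and neither passed the adjusted threshold of limma. RIPK3 read 4.16 and 4.25 on p53si-1 arrays and 4.45 and 4.20 on NS arrays (log2 fold change -0.12 ± 0.11, adjusted p = 0.740), again under the first quartile of gene signals. MLKL, the pore-forming executor, read 8.23 and 8.22 with p53si-1 and 8.15 and 8.18 with NS (0.06 ± 0.08, adjusted p = 0.816). The MLKL groups did not overlap, while those of RIPK3 did.

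In the apoptosome and mitochondrial branch, 5 of 6 members lay close to 0 and APAF1 stood apart from them. APAF1, the scaffold of the apoptosome and a target of wild-type p53, read 7.99 and 8.09 on p53si-1 arrays and 7.72 and 7.84 on NS arrays. Both p53si-1 arrays were above both NS arrays, with a log2 fold change of 0.26 ± 0.09 (1.20-fold higher, 95% interval 0.04 to 0.48, adjusted p = 0.342). CASP9, the initiator that the apoptosome activates, read 7.84 and 8.03 with p53si-1 and 8.07 and 7.96 with NS. Its groups overlapped, and the interval of its log2 fold change ran from -0.33 to 0.17 around -0.08 (adjusted p = 0.808). CYCS, cytochrome c, gave -0.03, separated downward by less than 0.05 between the group means. AIFM1, the flavoprotein released from mitochondria, read 10.36 and 10.44 with p53si-1 and 10.44 and 10.43 with NS (-0.03, adjusted p = 0.919). DIABLO and HTRA2, mitochondrial proteins that relieve IAP inhibition, gave 0.02 and 0.00039 with overlapping groups.

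The PIDDosome joins PIDD1, the adaptor CRADD (RAIDD) and caspase-2, and held the highest estimate of the module. CASP2 read 9.46 and 9.52 on p53si-1 arrays and 9.07 and 9.18 on NS arrays. The groups were well apart relative to their own spread, with a log2 fold change of 0.36 ± 0.09 (1.29-fold higher, 95% interval 0.15 to 0.58), and the adjusted p of limma was 0.193. CRADD read 6.36 and 6.24 with p53si-1 and 6.06 and 6.12 with NS, a log2 fold change of 0.21 ± 0.09 (adjusted p = 0.414), again without overlap. PIDD1, the wild-type p53 target that nucleates the complex, read 7.19 and 7.05 with p53si-1 and 7.14 and 7.12 with NS (-0.02 ± 0.09, adjusted p = 0.962), with the sign turned after median centring. Estimates of 2 of the 3 components were thus above 0.2 and that of the third was near 0.

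IAP genes encode caspase inhibitors or relatives that share their BIR domain. BIRC5 (cluster 8010260), which encodes survivin, read 9.68 and 9.60 on p53si-1 arrays and 9.93 and 9.85 on NS arrays, a log2 fold change of -0.25 ± 0.08 (adjusted p = 0.330). Its groups did not overlap. A second and much dimmer cluster of BIRC5 gave 4.46 and 4.44 with p53si-1 and 4.37 and 4.25 with NS, in the opposite direction (0.14), and the mean of both clusters gave -0.05. XIAP, which binds and blocks executioner caspases, read 7.58 and 7.66 with p53si-1 and 7.51 and 7.56 with NS (0.09 ± 0.08, adjusted p = 0.744). BIRC6, a giant ubiquitin ligase of this family, overlapped at -0.18 (adjusted p = 0.615).

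Survivin is made mainly in dividing cells, where it is a subunit of the chromosomal passenger complex with borealin (CDCA8), aurora B (AURKB) and INCENP. CDCA8 read 8.80 and 8.83 on p53si-1 arrays and 9.10 and 9.08 on NS arrays, a log2 fold change of -0.27 (adjusted p = 0.266). AURKB was separated downward at -0.15 (adjusted p = 0.534) and INCENP upward at 0.25 (adjusted p = 0.354). Of the 10 proliferation genes listed, which include these partners, 5 means were lower and 5 higher, 3 were separated downward and 1 upward, and 0 passed the adjusted threshold. The third gene separated downward was the checkpoint kinase BUB1, at -0.13 (adjusted p = 0.577). Of all genes, 22.6% were separated downward and 19.9% upward. Estimates for MKI67, TOP2A, CCNB1, CDK1, PLK1 and AURKA were 0.01, 0.0076, 0.02, -0.04, -0.05 and 0.10, with overlapping groups. The partners of survivin thus had estimates on both sides of 0.

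In the execution phase all 4 measured members had a higher mean with p53si-1, with a median of 0.11, and 2 of them were separated upward. Of all genes, 47.4% had a higher mean and 19.9% were separated upward. CASP6, an effector caspase that cuts lamins, read 8.54 and 8.46 on p53si-1 arrays and 8.38 and 8.24 on NS arrays (log2 fold change 0.19 ± 0.09, adjusted p = 0.467). Both p53si-1 arrays were above both NS arrays. PARP1, the DNA repair enzyme whose cleaved form marks apoptosis, read 9.78 and 9.92 with p53si-1 and 9.82 and 9.78 with NS. Its groups overlapped, and the interval of its log2 fold change ran from -0.17 to 0.27 around 0.05 (adjusted p = 0.870). DFFB, the caspase-activated DNase, read 6.84 and 6.75 with p53si-1 and 6.71 and 6.63 with NS (0.13, adjusted p = 0.619). DFFA, its inhibitor and chaperone, overlapped at 0.09.

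The 3 remaining caspases act outside the apoptotic cascade, and all 3 means were lower, where 52.6% of all genes had a lower mean. CASP14, a caspase of epidermal differentiation, read 11.32 and 10.56 on p53si-1 arrays and 11.51 and 10.88 on NS arrays. Replicate 2 was below replicate 1 by 0.77 with p53si-1 and by 0.63 with NS, and CASP14 was the only member whose replicates were over 1.5-fold apart, in both groups. Its log2 fold change of -0.25 ± 0.29 (adjusted p = 0.790) was smaller than that spread. Arrays of equal number differed by -0.18 and -0.32. With the replicate number as a block, the SE of limma for CASP14 was 0.0796 and the adjusted p 0.222. Over all genes, 133 were over 1.5-fold apart between the p53si-1 arrays and 105 between the NS arrays. CASP1, the inflammatory caspase of the inflammasome, read 6.96 and 6.95 with p53si-1 and 7.25 and 6.97 with NS (-0.16 ± 0.11, adjusted p = 0.649), so that its mean difference came from NS replicate 1. CASP4, the sensor caspase of intracellular lipopolysaccharide, overlapped at -0.08.

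**Figure D3:**
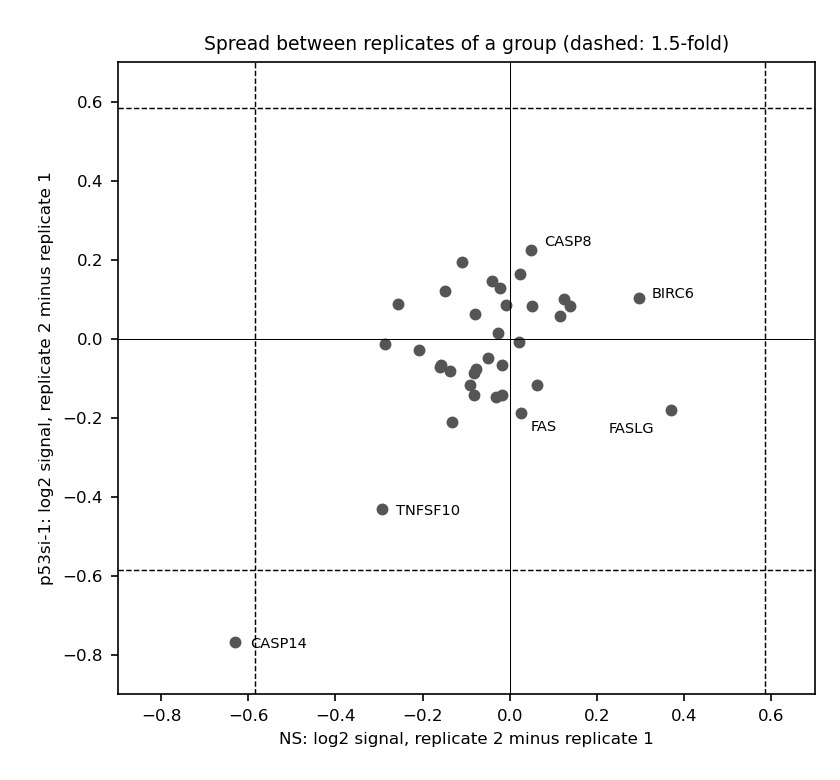
Replicate 2 minus replicate 1 in log2 signal with p53si-1 (y axis) against the same with NS (x axis), 1 point per member, with dashed lines at 1.5-fold. CASP14 alone lies beyond the lines, at -0.77 with p53si-1 and -0.63 with NS.

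Several members are textbook targets of wild-type p53, a function that contact mutants lose for the most part. The 9 members listed as such (FAS, TNFRSF10A, TNFRSF10B, PIDD1, APAF1, CASP6, CASP1, CASP10 and TNFRSF10D) had a median log2 fold change of -0.02, or 0.0074 after median centring, between -0.47 for FAS and 0.26 for APAF1. Of these, 4 were separated downward and 2 upward, against 22.6% and 19.9% of all genes, and after median centring 2 were separated downward and 2 upward. The means of 6 were lower and of 3 higher, which became 4 lower and 5 higher after median centring. Centring moved the median of all genes from -0.0089 to 0.0158, and the all-gene shares are not given for it. The estimates of the 9 members thus lay on both sides of 0.

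**Figure D4:**
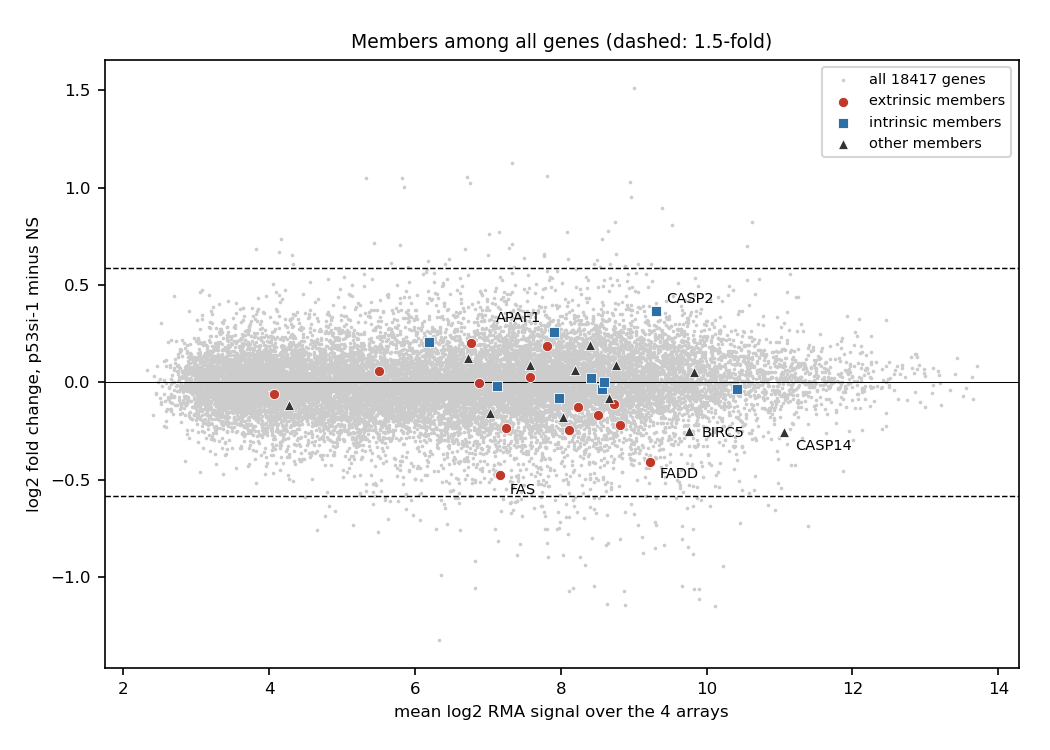
Difference in log2 signal between p53si-1 and NS (y axis) against mean log2 signal over the 4 arrays (x axis) for 18417 genes in gray, with extrinsic members as red circles, intrinsic members as blue squares and other members as black triangles. All 35 members lie between the dashed 1.5-fold lines, with FAS lowest and CASP2 highest among them.

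The related lists of genes that work beside the members also stayed within 1.5-fold. Among 16 other TNF ligands and receptors, 10 means were lower and 6 higher, 5 were separated downward and 0 upward, and the median was -0.05. Of all genes, 52.6% had a lower mean, 22.6% were separated downward and 19.9% upward. The receptor of lymphotoxin LTBR read 8.06 and 8.08 on p53si-1 arrays and 8.51 and 8.48 on NS arrays, a log2 fold change of -0.42 ± 0.08 (adjusted p = 0.126). TNF, the ligand of TNFRSF1A, read 5.91 and 6.45 with p53si-1 and 6.41 and 6.95 with NS (-0.51 ± 0.23, adjusted p = 0.447). Its replicates differed by as much as the groups, while arrays of equal number differed by -0.503 and -0.508. With the replicate number as a block, the SE of limma was 0.0735 and the adjusted p 0.0759. Whether equal numbers form pairs is not stated. TNFRSF12A, the receptor of TWEAK, gave -0.25 and the neurotrophin receptor NGFR -0.23, at adjusted p of 0.318 and 0.390.

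Of 22 partners of the receptor complexes, which carry signals toward NF-kB or restrain them, 12 means were lower and 10 higher. Their median was -0.0093 and became 0.0154 after median centring, where that of all genes went from -0.0089 to 0.0158. TAB3, an adaptor of the kinase TAK1, gave -0.40 (adjusted p = 0.174) and the adaptor TRAF5 -0.38 (adjusted p = 0.169), both separated downward. TNFAIP3, the ubiquitin-editing inhibitor A20, read 6.51 and 6.53 on p53si-1 arrays and 6.56 and 7.12 on NS arrays (-0.32, adjusted p = 0.530). Its difference was carried by NS replicate 2.

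Among 13 measured inflammasome and gasdermin genes the median was 0.08. GSDMC, a gasdermin that forms pores once cleaved, read 8.11 and 8.05 on p53si-1 arrays and 7.74 and 7.63 on NS arrays, a log2 fold change of 0.40 ± 0.09 (adjusted p = 0.167). CARD8, an inflammasome sensor, gave 0.28 (adjusted p = 0.340) and 0.08 as the mean of its 2 clusters, and GSDME, another gasdermin, -0.28 with overlapping groups (adjusted p = 0.590). In 16 partners of the execution phase the median was -0.04. ACIN1, a caspase substrate of chromatin condensation, gave 0.26 and XKR8, a caspase-activated lipid scramblase, 0.23, at adjusted p of 0.327 and 0.340. Of 8 caspases and IAP genes outside the list, BIRC2 (cIAP1) had the largest estimate, 0.09. In these 5 lists 0 genes passed an adjusted p of 0.05 by limma, and at an unadjusted p under 0.05 there were 4 higher and 6 lower of 75 genes, near the 5.45% and 6.8% of all genes. GAPDH, B2M and ACTB gave -0.09, 0.05 and -0.07.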

How the data were processed

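RNA of 4 MDA-MB-468 cultures was labelled and read on the Human Gene 1.0 ST array of Affymetrix. The authors deposited 1 log2 value per transcript cluster for each sample. GCOS, Expression Console and RMA are named in the submitters' processing notes, and for the settings of RMA the entry is "not given in the sources used here". The scale is judged from the range of 1.75 to 14.3 and the like quartiles of the arrays. RMA equalizes the arrays' distributions, so a change shared by most transcripts would be removed, and small fold changes of dim probes are pulled toward 0.

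No further normalization or filter was applied. Of 33297 clusters, 19460 named 1 symbol in the platform annotation, 1754 several and 12083 none here, and only the first kind was used. The cluster with the highest mean represented each of 18417 genes. Signals of different clusters do not rank transcripts. Groups were compared by linear models in limma 3.58.1 (R 4.3.3) with moderated variances, on 2 residual plus 4.20 prior degrees of freedom, and p-values were adjusted across all genes by the Benjamini-Hochberg method. SE and 95% intervals come from this fit. The steps were run on simulated data with changes of 1.5-fold and more, which does not measure how often smaller changes would be called. A 1.5-fold difference is the only threshold the study states for the arrays. Precision is limited by the number of arrays. The study describes its 2 experiments as independent, and p-values measure the spread between these arrays. The replicate number was not a block in the model because no source states that arrays of equal number came from the same experiment. If each experiment held both shRNAs, the fit used here ignores that pairing.

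Values on every array are given for the 10 members with the largest change, members at an unadjusted p under 0.05, the extremes of each role by mean signal, CASP8, CASP9, CASP6 and PARP1, with up to 4 genes per related list. Members, lists and rules were chosen with earlier results of these data known. The alternatives took the mean of all clusters, left out genes under the first quartile of mean signal, renormalized or centred the arrays, let the prior variance follow signal, added a block for the replicate number, omitted single arrays, adjusted over all clusters, and changed the fold criterion or the makeup of the classes. Promoter windows and gene order came from RefSeq (GRCh38.p14).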

Additional observations from a re-analysis of the deposited data

How the results depend on the processing

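The number of members at an adjusted p under 0.05 stayed at 0 under all 11 alternatives, with a lowest adjusted p between 0.1 and 0.458, while the number at an unadjusted p under 0.05 ran from 4 to 11. With the replicate number as a block, 0 members passed and 11 had an unadjusted p under 0.05 (4 higher and 7 lower). The shares of all genes are not given for the alternatives, so the changed counts of members have no background beside them. Same-numbered arrays deviated together across genes (correlation 0.24), which alone does not pair them. At a 1.3-fold criterion 2 members were apart (FAS and FADD), and at 2-fold 0. Without 1 array the count over 1.5-fold ran from 0 to 1, the 1 being CASP14 without p53si-1 replicate 1. Members without overlap numbered 19, 17 after median centring (11 higher and 6 lower) and 24 to 29 without 1 array, where fewer arrays separate more easily. The extrinsic median was -0.118 and ran from -0.171 to -0.0445 without 1 array. The intrinsic median was 0.00039 and became 0.0251 after median centring, which moved the median of all genes from -0.0089 to 0.0158. Without 1 array the intrinsic median ran from -0.0264 to 0.0535, so its sign is not settled. The cause was not tested.

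Of 348 member values under alternatives, 21 changed sign, in 14 members. These were TNFRSF10D (0.0211 after median centring, 0.0207 after quantile normalization) and PIDD1 (0.00743 after median centring), and otherwise arose from leaving out 1 array. Those ranges were -0.0746 to 0.0111 for AIFM1, -0.0258 to 0.14 for CASP10, -0.636 to 0.132 for CASP14, -0.158 to 0.00287 for CASP4, -0.179 to 0.0165 for CASP9, -0.0164 to 0.191 for DFFA, -0.0394 to 0.0882 for DIABLO, -0.242 to 0.128 for FASLG, -0.0584 to 0.0592 for HTRA2, -0.0212 to 0.124 for PARP1, -0.088 to 0.0535 for PIDD1, -0.245 to 0.0111 for RIPK3, -0.0434 to 0.0363 for TNFRSF10D and -0.00737 to 0.06 for TNFRSF25. Outside the members they were -0.0073 to 0.198 for AURKA, -0.0222 to 0.124 for B2M, -0.114 to 0.0638 for CARD18, -0.064 to 0.111 for CCNB1, -0.153 to 0.0701 for CDK1, -0.123 to 0.142 for MKI67 and -0.0966 to 0.112 for TOP2A. The other 21 members, FAS, FADD, CASP2 and APAF1 among them, kept their sign under every alternative run.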
